A study of Homo sapiens with 4 samples.

Results

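Cells that run short of amino acids or that accumulate unfolded protein in the endoplasmic reticulum (ER) answer through shared signalling. The kinases GCN2 (EIF2AK4) and PERK (EIF2AK3) phosphorylate the initiation factor eIF2α, which lowers general translation and favours translation of the transcription factor ATF4, and ATF4 in turn drives genes of amino acid synthesis and transport. In the ER the sensors IRE1 (ERN1) and ATF6 act beside PERK, through spliced XBP1 and cleaved ATF6, on genes of protein folding and ER-associated degradation. In the liver, whose hepatocytes secrete large amounts of plasma protein, these pathways are well studied.

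The 42 genes of these pathways described here were picked by gene symbol from the 16370 genes listed in the count data. They comprised 4 stress sensors, 6 transcription factors, 3 feedback genes, 10 genes of amino acid synthesis, 7 amino acid transporters, 4 genes of ER-associated degradation and 8 ER folding factors. RNA from human hepatoma cells was sequenced in 4 cultures, namely the hepatocellular carcinoma (HCC) lines Hep3B and Huh7 and the hepatic cancer stem cell (HCSC) lines Hep3B-C and Huh7-C, which were cultured from them as stem-like cells. No treatment, starvation or stress agent is named in the labels, so the comparison is between an HCSC line and its own parental line. Each culture was represented by 1 library, and every test below compares those libraries and covers counting error only, without a replicate check on the cultures.

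Total gene counts ranged from 2896418 (Hep3B) to 4641927 (Hep3B-C), so that 3 counts stood for 0.646 to 1.04 CPM (read counts scaled by the total gene count of the library). Huh7 and Huh7-C had 4537510 and 4333808. By the total reads that the paper lists, Hep3B was the most deeply sequenced RNA library, yet it had the lowest total gene count. The reason, and its part in the Hep3B pair below, was not tested. All 42 genes were listed in both pairs with at least 10 counts in each pair, and the lowest count was 3 (SLC6A9 in Hep3B). Of 8 hepatocyte markers, all were listed in every library, but their levels differed between the parental lines. The Huh7 pair had only 482 and 1156 counts of ALB, 26 and 12 of AFP and 13 in each library of TTR, against 56598 and 85731 counts of ALB in the Hep3B pair, while SERPINA1, APOB and TF were high in all 4 libraries. Of 15 markers of fibroblasts, endothelial cells and leukocytes, DCN, CDH5, TEK, PTPRC and CD163 were not listed in either pair, CD68 and LYZ had 236 to 1254 counts in every library, and the others had at most 18 counts except in Huh7-C, where PECAM1 had 93 and COL3A1 58. The part of these markers in the results below was not tested.

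Genes were called up- or down-regulated in an HCSC line at a false discovery rate (FDR) of at most 0.01 in the Audic-Claverie test, which asks whether Poisson sampling alone could give both counts, with an absolute log2 fold-change (HCSC/HCC) of at least 1. In Hep3B-C (vs. Hep3B), 15 of the 42 genes passed as up-regulated and 6 as down-regulated, against 13.2% up and 30.4% down among all 15480 genes of that pair. The median log2 fold-change was 0.12 over the 42 genes and -0.60 over all genes with at least 10 counts. In Huh7-C (vs. Huh7), 3 genes passed as up-regulated and 0 as down-regulated, against 4.19% and 4.15% among 14807 genes, and the medians were 0.00 and 0.06. In bulk RNA, fewer cells of a type and less RNA per cell cannot be told apart.

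**Figure D1:**
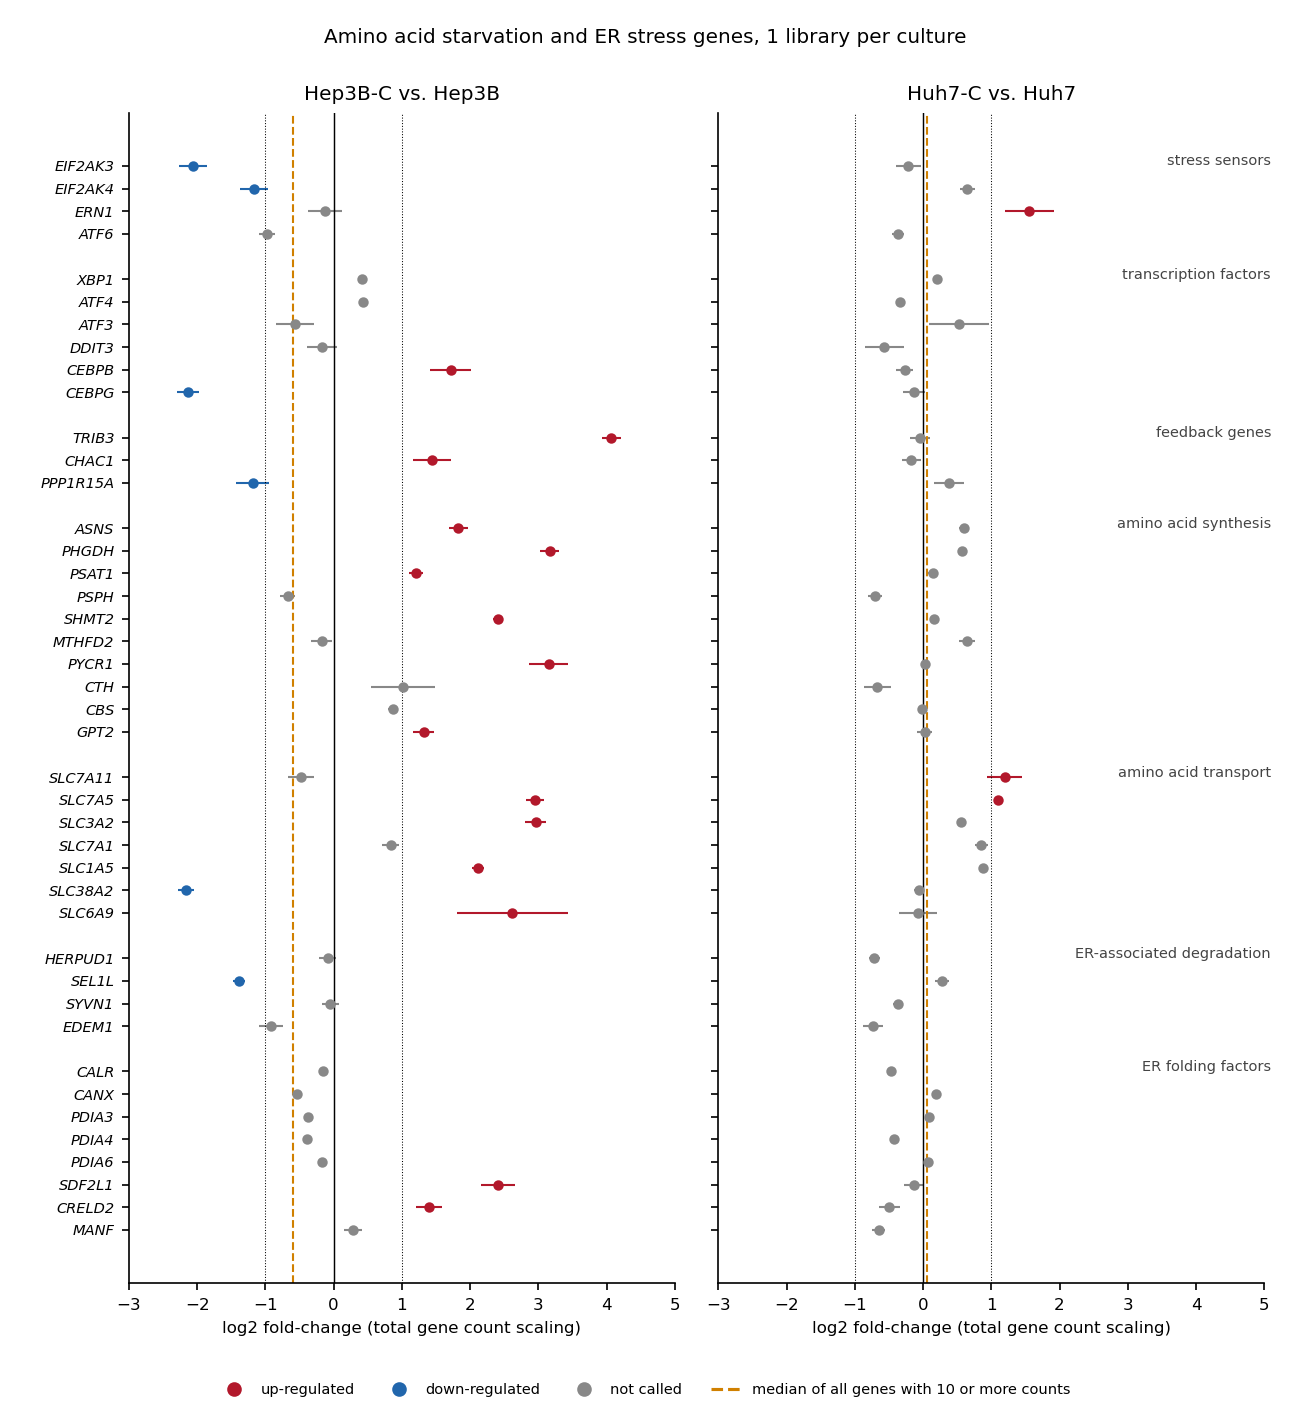
Log2 fold-change (x axis, scaled by total gene count) of each of the 42 genes (y axis, grouped by role) in Hep3B-C vs. Hep3B (left) and Huh7-C vs. Huh7 (right), with bars for 1 Poisson SE of a single pair of libraries. Up-regulated genes are red (15 left, 3 right), down-regulated genes blue (6 left, 0 right) and the others grey, dotted lines mark -1 and 1, and the dashed line is the median of all genes (-0.60 and 0.06). Among the red and blue genes of the Hep3B pair, CEBPB, CHAC1, CRELD2, SEL1L and EIF2AK4 flip direction under at least 1 other scaling described in the text. Grey genes of that pair flip as well, 12 of them under TMM alone.

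The scale of the Hep3B pair needs to be read with care. TMM library sizes, which set the bulk of genes to no change, raised every log2 fold-change of that pair by 0.60, while DESeq2 size factors, which came out equal for both libraries, raised it by 0.68. In the Huh7 pair the shifts were -0.04 and -0.07. With TMM, 20 of the 42 genes counted as up-regulated and 3 as down-regulated in Hep3B-C, against 21.6% and 18.1% of all genes.

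Fold-changes of the Hep3B pair also followed the base composition of the transcripts. Over 11338 genes with at least 20 counts, the log2 fold-change had a Spearman correlation of 0.63 with GC content and of -0.43 with gene length, and over the 42 genes the values were 0.69 and -0.43. In the Huh7 pair the correlations were -0.06 and 0.32 over 11060 genes, and 0.05 and 0.42 over the 42 genes. The points share their libraries, and the values are descriptions only. When the fitted trends on GC content and length were removed and the overall centre was kept, 11 of the 42 genes counted as up-regulated and 7 as down-regulated in Hep3B-C, against 4.51% and 23.2% of all genes. With TMM library sizes and the trends removed together, 17 were up-regulated and 1 down-regulated, against 12.5% and 10.9%. How much of any single fold-change belongs to these trends was not tested.

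**Figure D2:**
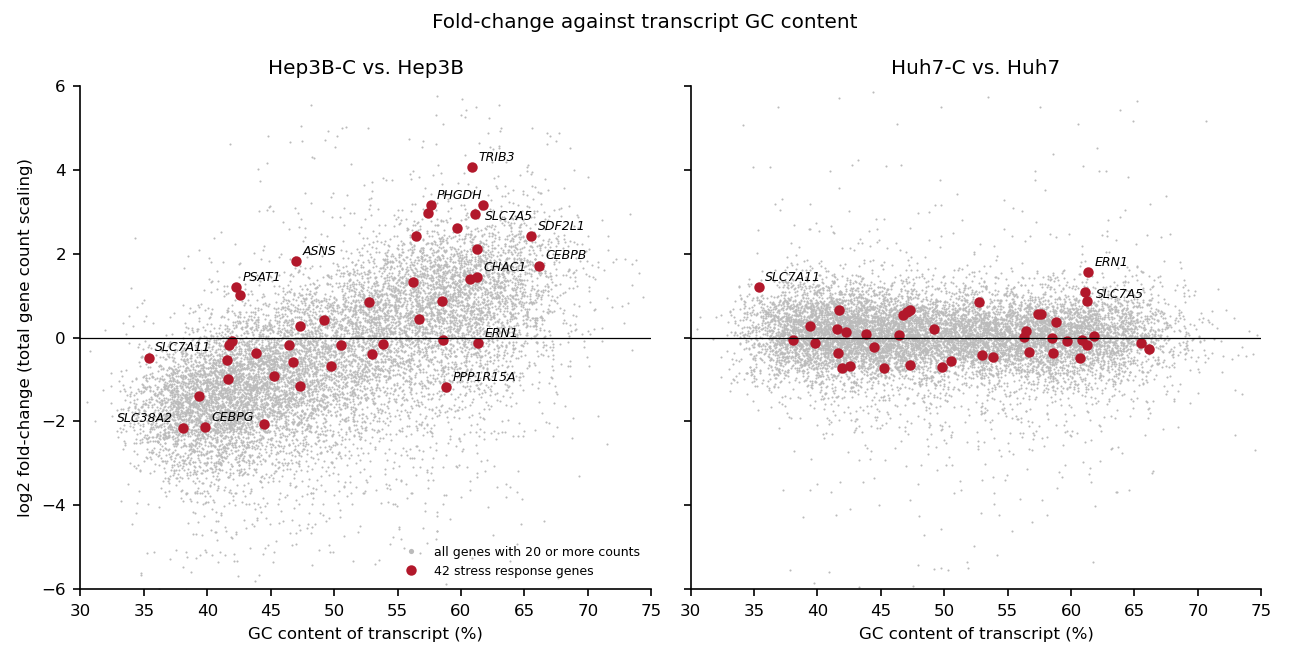
Log2 fold-change (y axis, scaled by total gene count) against the GC content of 1 transcript per gene (x axis, %) in Hep3B-C vs. Hep3B (left) and Huh7-C vs. Huh7 (right); grey points are all genes with at least 20 counts in the pair and red points the 42 stress response genes, with values beyond 6 in either direction outside the frame. Fold-changes climb with GC content in the Hep3B pair (Spearman 0.63) and not in the Huh7 pair (-0.06), while TRIB3, PSAT1 and ASNS lie above, and PPP1R15A and ERN1 below, most genes of similar GC content in the Hep3B pair.

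Under all 4 scalings (total gene count, TMM, trends removed, and TMM with trends removed), 8 of the 42 genes were up-regulated in Hep3B-C, against 3.31% of all genes. These were TRIB3, ASNS, PHGDH, PSAT1, SHMT2, PYCR1, SLC7A5 and SLC3A2. No gene of the 42 was down-regulated under all 4, against 7.13% of all genes. Of the 8 genes, 5 make amino acids or one-carbon units, SLC7A5 and SLC3A2 are the subunits of 1 transporter, and TRIB3 is a feedback gene.

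**Figure D3:**
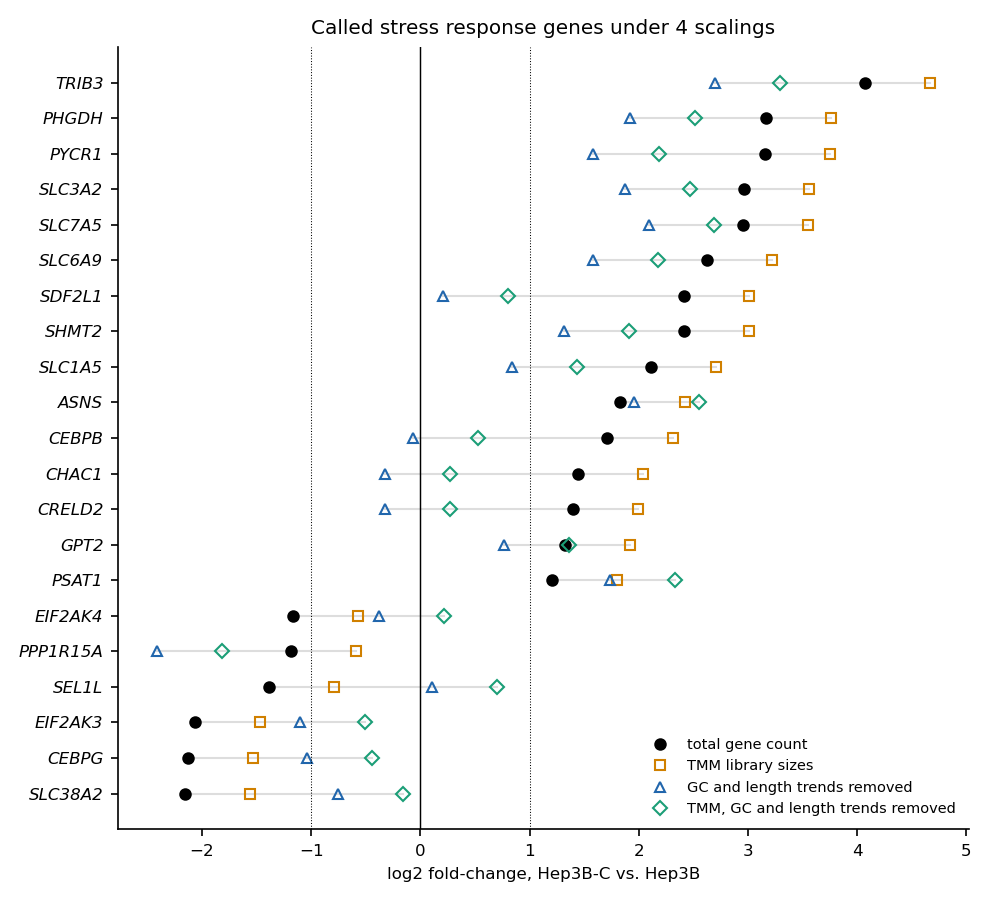
Log2 fold-change in Hep3B-C vs. Hep3B (x axis) of the 21 called genes (y axis) under 4 scalings, with dotted lines at -1 and 1; black circles are the total gene count, squares TMM library sizes, triangles the GC and length trends removed, and diamonds both together. TRIB3 stays between 2.70 and 4.67, while CEBPB, CHAC1, CRELD2, SEL1L and EIF2AK4 change sign under at least 1 scaling.

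The promoters of several of these genes hold the short sequences to which the pathways' transcription factors are known to bind, and they are shown here as context for the groups that follow. RefSeq promoter windows (GRCh38.p14, from 250 bases before to 50 bases after a transcript start) were found for 36 of the 42 genes, and not for SLC7A11, PYCR1, SHMT2, PSPH, PDIA3 and GPT2. The C/EBP-ATF response element, searched on both strands as TGATGNAAN, was in a window of 8 of the 36 genes (22.2%) and of 4.45% of all 27305 genes with a window. It is the element bound by ATF4 with a C/EBP partner. Stretches around it are printed 5′ to 3′ on the strand of the gene, with the element in capitals. In CHAC1 and HERPUD1, and in SLC3A2, whose stretch is not printed, it lies on the opposite strand.
ASNS, chr7:97872458-97872486, minus strand: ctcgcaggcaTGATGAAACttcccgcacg
CHAC1, chr15:40953251-40953279, plus strand: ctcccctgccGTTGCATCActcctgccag
SLC1A5, chr19:46784893-46784921, minus strand: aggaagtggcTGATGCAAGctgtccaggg
SLC7A1, chr13:29595663-29595691, minus strand: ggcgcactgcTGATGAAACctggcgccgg
CEBPG, chr19:33374055-33374095, plus strand: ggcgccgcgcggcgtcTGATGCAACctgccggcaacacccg
ATF3, chr1:212565200-212565240, plus strand: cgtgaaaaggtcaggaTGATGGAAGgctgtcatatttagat
HERPUD1, chr16:56931949-56931989, plus strand: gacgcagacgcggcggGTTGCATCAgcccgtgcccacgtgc
The elements in SLC3A2 and SLC7A1 lie after the transcript start. Those of ASNS, CHAC1, SLC1A5, SLC3A2 and SLC7A1 overlap exons of at least 1 GENCODE transcript.

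The ER stress response element (CCAAT, 9 bases of any kind, CCACG, on either strand), bound by ATF6 together with NF-Y, was in a window of 5 genes (13.9%) and of 0.0916% of all genes. They were the folding factors CALR, CANX, PDIA6 and CRELD2, and XBP1. The second form of the element (ATTGG, 1 base, CCACG) was in HERPUD1 and SDF2L1, or 5.56% against 0.0696% of all genes, and the unfolded protein response element (TGACGTGG) was in none of the 36 genes and in 0.927% of all. Stretches of folding factors that behaved differently in Hep3B-C are printed in the same way, together with XBP1, and in CALR, CRELD2 and SDF2L1 the element lies on the opposite strand.
CRELD2, chr22:49918538-49918588, plus strand: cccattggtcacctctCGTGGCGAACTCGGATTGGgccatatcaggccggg
SDF2L1, chr22:21642098-21642140, plus strand: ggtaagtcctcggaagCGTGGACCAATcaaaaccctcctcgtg
CALR, chr19:12938368-12938418, plus strand: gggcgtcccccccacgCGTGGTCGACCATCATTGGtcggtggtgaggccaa
PDIA6, chr2:10812848-10812876, minus strand: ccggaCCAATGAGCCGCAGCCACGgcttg
XBP1, chr22:28800598-28800626, minus strand: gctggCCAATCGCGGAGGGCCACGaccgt
A match describes letters in a window, not a bound site. Genes with an element were found among those up-regulated, down-regulated and not called in Hep3B-C.

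Of the 4 stress sensors, 2 were down-regulated in Hep3B-C, against 30.4% of all genes, and 1 was up-regulated in Huh7-C, against 4.19%. With TMM and the trends removed, 0 sensors were called in Hep3B-C, against 12.5% up and 10.9% down of all genes. EIF2AK3 (PERK) stood at 63.2 CPM in Hep3B and 15.1 in Hep3B-C, against 30.6 in Huh7 and 26.3 in Huh7-C. Hep3B was the highest and Hep3B-C the lowest of the 4 libraries, with a log2 fold-change of -2.06 (SE 0.20) in the Hep3B pair, which was -1.10 with the trends removed and -0.51, not called, with TMM added. EIF2AK4 (GCN2), the sensor of uncharged tRNA, stood at 42.1, 18.7, 67.7 and 106 CPM in the same order of libraries, which is kept for every list of 4 values that follows. Its log2 fold-change of -1.17 (SE 0.20) in Hep3B-C turned to 0.21 with TMM and the trends removed, and the value of 0.65 (SE 0.11) in Huh7-C missed the fold threshold.

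ERN1 (IRE1), the kinase and ribonuclease that splices XBP1, had few reads, with 56 and 82 counts in the Hep3B pair and 21 and 60 in the Huh7 pair. It stood at 19.3 and 17.7 CPM in Hep3B and Hep3B-C, which did not pass the test, but with the trends removed it was down-regulated there, at -1.13 on the log2 scale. In Huh7-C it was up-regulated from 4.63 to 13.8 CPM, a log2 fold-change of 1.56 (SE 0.36), and it was the only one of the 42 genes called in Huh7-C under all 4 scalings. Huh7 was the low library and the other 3 lay within 13.8 to 19.3 CPM. ATF6 stood at 117 and 59.5 CPM in the Hep3B pair, where its log2 fold-change of -0.98 (SE 0.12) lay just short of the threshold and was -1.18 and called with only the length trend removed, and at 133 and 103 CPM in the Huh7 pair.

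Of the 6 transcription factors, CEBPB was up-regulated and CEBPG down-regulated in Hep3B-C, against 13.2% up and 30.4% down of all genes. None was called in Huh7-C, against 4.19% and 4.15%. ATF4, the central factor, stood at 311 CPM in Hep3B and 421 in Hep3B-C, against 727 in Huh7 and 572 in Huh7-C. Both Huh7 libraries were above both Hep3B libraries. The log2 fold-changes of 0.44 (SE 0.06) and -0.35 (SE 0.04) were under the fold threshold. The first was 1.03 and called with TMM, -0.71 with the trends removed and -0.12 with both. ATF4 is controlled in large part at translation, and XBP1 by splicing, neither of which gene counts show.

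CEBPB, a C/EBP partner of ATF4, stood at 9.32, 31.0, 71.2 and 59.1 CPM. Hep3B was the low library, with 27 counts against 144 in Hep3B-C. The log2 fold-change of 1.71 (SE 0.30) was -0.07 with the trends removed, at a GC content of 66.2%, the highest of the 42 genes. CEBPG, another C/EBP partner, went the other way, at 106, 24.1, 37.3 and 33.9 CPM. Here Hep3B was the high library, and the log2 fold-change of -2.13 (SE 0.16) was -1.04 with the trends removed and -0.44, not called, with TMM added.

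XBP1 had 280 and 373 CPM in the Hep3B pair and 583 and 668 CPM in the Huh7 pair, and neither HCSC line passed the fold threshold, with log2 fold-changes of 0.42 (SE 0.06) and 0.20 (SE 0.04). With TMM the first was 1.01 and passed. DDIT3 (CHOP), a factor tied to cell death under lasting ER stress, had 41 to 103 counts and 9.46 to 24.9 CPM over the 4 libraries. Its log2 fold-changes were -0.17 (SE 0.22) in Hep3B-C and -0.57 (SE 0.29) in Huh7-C, neither called, and the first was -1.07 and called with the trends removed. ATF3, an ATF4 target and stress-induced factor, had 18 to 55 counts, with log2 fold-changes of -0.57 (SE 0.28) and 0.53 (SE 0.44), neither of which passed the test.

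Of the 3 feedback genes, TRIB3 and CHAC1 were up-regulated and PPP1R15A down-regulated in Hep3B-C, against 13.2% up and 30.4% down of all genes. With the trends removed 1 was up-regulated and 1 down-regulated, against 4.51% and 23.2%. None was called in Huh7-C, against 4.19% and 4.15%. TRIB3, a pseudokinase induced by ATF4 and CHOP that restrains ATF4, had the largest log2 fold-change of the 42 genes. It stood at 107 counts or 36.9 CPM in Hep3B and 2895 counts or 624 CPM in Hep3B-C, against 42.8 CPM in Huh7 and 41.3 CPM in Huh7-C. A single library stood out, and the other 3 lay within 36.9 to 42.8 CPM. The fold-change was 16.8-fold in Hep3B-C, or 4.07 (SE 0.14) on the log2 scale, and -0.05 (SE 0.15) in Huh7-C. The value was 2.70 with the trends removed, and TRIB3 was the only one of the 42 genes still called when a biological coefficient of variation of 0.4 between cultures was assumed.

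CHAC1, an ATF4 target that degrades glutathione, stood at 11.0 CPM (32 counts) in Hep3B and 30.4 in Hep3B-C, against 56.9 in Huh7 and 50.5 in Huh7-C. Hep3B was the low library. The log2 fold-change of 1.44 (SE 0.28) in Hep3B-C was -0.32 with the trends removed. PPP1R15A (GADD34), the phosphatase subunit that restores eIF2α, was lower in Hep3B-C by the same test, at 29.0 and 12.7 CPM in the Hep3B pair (84 and 59 counts), and stood at 17.4 and 22.6 CPM in the Huh7 pair. Its log2 fold-change of -1.19 (SE 0.24) was -0.59, not called, with TMM and -2.41 with the trends removed, so that TRIB3 and PPP1R15A, both ATF4-related feedback genes, lay on opposite sides of 0 under each scaling.

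Of the 10 amino acid synthesis genes, 6 were up-regulated in Hep3B-C and none down-regulated, against 13.2% and 30.4% of all genes. Their median log2 fold-change was 1.27, against -0.60 over all genes with at least 10 counts. With the trends removed 6 were up-regulated, against 4.51% of all genes, CTH then standing in place of GPT2. In Huh7-C none was called, against 4.19% up and 4.15% down, and the medians were 0.09 and 0.06. Of the 10 genes, 8 had a positive fold-change in Hep3B-C and 7 in Huh7-C. Of all genes with at least 10 counts, 4563 of 12383 and 6379 of 11951 did. With TMM the counts were 9 and 5 of the 10 genes, against 6182 and 6056 of all genes.

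PHGDH, the first enzyme of the serine pathway, rose from 109 to 1575 counts, which was 37.6 CPM in Hep3B and 339 in Hep3B-C, and stood at 246 CPM in Huh7 and 365 in Huh7-C. Hep3B was the low library by a wide margin. The log2 fold-change was 3.17 (SE 0.14) in Hep3B-C, or 1.92 with the trends removed, and 0.57 (SE 0.06) in Huh7-C. PSAT1, the second enzyme, stood at 80.1, 185, 147 and 162 CPM, with a log2 fold-change of 1.21 (SE 0.11) in Hep3B-C that was 1.74 with the trends removed, at a GC content of 42.3%, and 0.85, not called, with only the length trend removed. PSPH, the last enzyme, was not called with them. It stood at 124, 77.8, 125 and 76.8 CPM, and its log2 fold-changes of -0.68 (SE 0.11) and -0.70 (SE 0.10) were of like size in both pairs and short of the threshold under the total gene count. The first was -1.06 and called with only the length trend removed. Pseudogene copies are named in RefSeq for 8 of the 42 genes, namely MTHFD2, ASNS, PSAT1, ATF4, SLC7A5, PDIA3, PSPH and XBP1, and how reads with several matches were counted is not given in the sources used here, so the values of these genes are uncertain to that extent.

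SHMT2 and MTHFD2 turn serine into mitochondrial one-carbon units. SHMT2 was up-regulated in Hep3B-C, from 396 to 3379 counts (137 and 728 CPM), and stood at 296 and 330 CPM in the Huh7 pair. Hep3B-C was the highest library, and the log2 fold-change of 2.41 (SE 0.08) was 1.32 with the trends removed. MTHFD2 stood at 52.1, 46.3, 58.6 and 91.8 CPM. It was called in neither line under the total gene count, with log2 fold-changes of -0.17 (SE 0.15) and 0.65 (SE 0.11), and the first became 0.42 with TMM, 0.43 with the trends removed and 1.03, called, with both.

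ASNS, which makes asparagine and is a well-known ATF4 target, stood at 44.9 CPM in Hep3B and 160 in Hep3B-C, against 150 in Huh7 and 227 in Huh7-C. Again Hep3B was the low library. Its log2 fold-change of 1.83 (SE 0.14) in Hep3B-C was 1.96 with the trends removed, and that of 0.60 (SE 0.07) in Huh7-C missed the threshold. PYCR1, the last step of proline synthesis, had 27 counts (9.32 CPM) in Hep3B, 391 counts (84.2 CPM) in Hep3B-C, and 325 and 333 CPM in the Huh7 pair. Hep3B-C lay between its parental line and the Huh7 pair, with a log2 fold-change of 3.15 (SE 0.29) in Hep3B-C and 0.04 (SE 0.05) in Huh7-C.

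GPT2, the mitochondrial alanine transaminase, was up-regulated in Hep3B-C from 37.6 to 94.6 CPM, against 80.4 and 81.7 CPM in the Huh7 pair. Its log2 fold-change of 1.32 (SE 0.15) was 0.77, not called, with the trends removed. The transsulfuration enzymes CBS and CTH, which lead from homocysteine to cysteine, were called in neither line under the total gene count. CBS stood at 199, 362, 465 and 460 CPM, with a log2 fold-change of 0.86 (SE 0.07) in Hep3B-C, under the fold threshold, that was 1.46 and called with TMM and -0.27 with the trends removed. CTH had 12 and 40 counts in the Hep3B pair and 142 and 85 in the Huh7 pair, with log2 fold-changes of 1.02 (SE 0.47) and -0.67 (SE 0.20). In the Hep3B pair it passed the fold threshold and not the FDR threshold, and it was called with TMM (1.61) and with the trends removed (1.37).

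**Figure D4:**
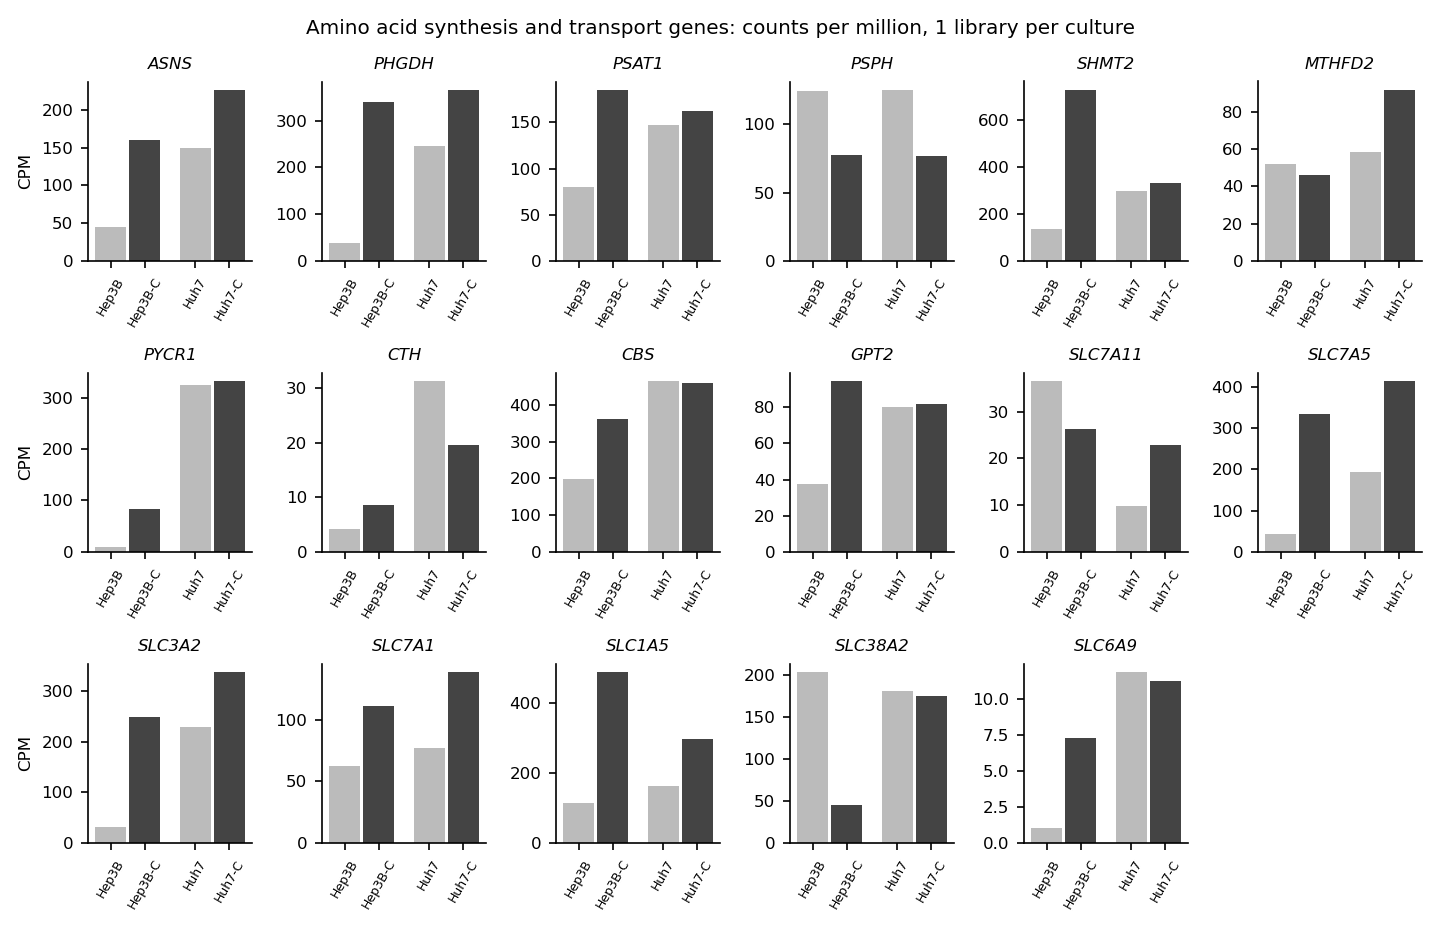
CPM (y axis, from 0, own scale in each panel) of the 10 amino acid synthesis and 7 transport genes in Hep3B, Hep3B-C, Huh7 and Huh7-C, with light bars for HCC and dark bars for HCSC lines and 1 library per bar. For PHGDH, ASNS, SLC7A5 and SLC3A2 the Hep3B bar is the lowest and Hep3B-C stands near the Huh7 pair, as with PHGDH at 37.6, 339, 246 and 365 CPM.

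Of the 7 amino acid transporters, 4 were up-regulated and 1 down-regulated in Hep3B-C, against 13.2% and 30.4% of all genes. Their median log2 fold-change was 2.12, against -0.60 over all genes with at least 10 counts. In Huh7-C, 2 were up-regulated, against 4.19% of all genes, and the medians were 0.85 and 0.06. SLC7A5 (LAT1), which exchanges large neutral amino acids, was the only one of the 42 genes up-regulated in both HCSC lines, against 0.568% of the 13917 genes listed in both pairs. It stood at 124 counts or 42.8 CPM in Hep3B and 1548 counts or 334 CPM in Hep3B-C, against 194 CPM in Huh7 and 415 CPM in Huh7-C. Each HCSC line lay above both HCC lines. The log2 fold-changes were 2.96 (SE 0.13) in Hep3B-C and 1.10 (SE 0.06) in Huh7-C, and the second was 0.90, not called, with the trends removed.

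SLC3A2 (CD98), the heavy chain that carries SLC7A5 and SLC7A11 to the membrane, stood at 31.8, 249, 229 and 338 CPM. Hep3B was the low library, and the log2 fold-changes were 2.96 (SE 0.16) in Hep3B-C and 0.56 (SE 0.06) in Huh7-C, the second not called. SLC7A11 (xCT), the cystine and glutamate exchanger, was not called with its heavy chain in Hep3B-C. It stood at 36.6 CPM in Hep3B and 26.3 in Hep3B-C, a log2 fold-change of -0.48 (SE 0.19) that was not called and was 0.12 with TMM. With the trends removed it was 1.45 and called, at a GC content of 35.4% and a length of 9648 bases, the lowest and the longest of the 42 genes. In Huh7-C, SLC7A11 was up-regulated from 9.92 to 22.8 CPM (45 and 99 counts), a log2 fold-change of 1.20 (SE 0.26) that was 0.70, not called, with the trends removed.

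SLC1A5 (ASCT2), a glutamine transporter, stood at 113 CPM in Hep3B and 490 in Hep3B-C, against 162 in Huh7 and 299 in Huh7-C. Both HCSC libraries were above both HCC libraries, but only the log2 fold-change of 2.12 (SE 0.09) in Hep3B-C passed the threshold, and it was 0.84 with the trends removed. The value in Huh7-C was 0.88 (SE 0.07). SLC7A1, the arginine and lysine transporter, had 62.2, 111, 76.9 and 139 CPM. Scaled by total gene count, its log2 fold-changes were 0.84 (SE 0.13) and 0.85 (SE 0.10), under the fold threshold in each. In Hep3B-C it was up-regulated under the other 3 scalings, at 1.44 with TMM, 1.07 with the trends removed and 1.67 with both, while the value in Huh7-C was 0.58 with the trends removed and not called.

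SLC38A2 (SNAT2), the neutral amino acid transporter induced by starvation, was the only transporter down-regulated in Hep3B-C under the total gene count. It stood at 203 CPM in Hep3B and 45.5 in Hep3B-C, against 181 in Huh7 and 174 in Huh7-C. Hep3B-C was the low library and the other 3 were close. The log2 fold-change of -2.16 (SE 0.12) in Hep3B-C was -0.76, not called, with the trends removed, at a GC content of 38.1%. SLC6A9, the glycine transporter GLYT1, had 3 counts in Hep3B and 34 in Hep3B-C, and 54 and 49 in the Huh7 pair. The log2 fold-change of 2.62 in Hep3B-C had an SE of 0.81, and it was 1.58, not called, with the trends removed.

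Of the 4 genes of ER-associated degradation, 1 (SEL1L) was down-regulated and 0 up-regulated in Hep3B-C, against 30.4% and 13.2% of all genes. None was called in Huh7-C, against 4.15% down and 4.19% up. SEL1L, the partner of the ubiquitin ligase HRD1, stood at 225 CPM in Hep3B and 86.0 in Hep3B-C, against 82.9 in Huh7 and 101 in Huh7-C. Hep3B was the high library. The log2 fold-change of -1.39 (SE 0.09) was 0.10 with the trends removed, for a gene of 39.4% GC and 6577 bases. SYVN1 (HRD1) itself stood at 81.8 and 79.3 CPM in the Hep3B pair and 173 and 134 CPM in the Huh7 pair, and with the trends removed it was down-regulated in Hep3B-C, at -1.07. HERPUD1, which binds HRD1 and whose promoter holds both elements printed or named above, stood at 83.6, 78.6, 181 and 110 CPM, with log2 fold-changes of -0.09 (SE 0.12) and -0.72 (SE 0.08), and the first was 1.05 and called with TMM and the trends removed. EDEM1, a lectin that passes misfolded glycoproteins to degradation, had 50.8, 26.7, 55.1 and 33.0 CPM, with log2 fold-changes of -0.93 (SE 0.18) and -0.74 (SE 0.15), both under the threshold. With the trends removed EDEM1 was down-regulated in Huh7-C, at -1.01, and stood at 0.12 in Hep3B-C.

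Of the 8 ER folding factors, 2 (SDF2L1 and CRELD2) were up-regulated and 0 down-regulated in Hep3B-C, against 13.2% and 30.4% of all genes. None was called in Huh7-C, against 4.19% and 4.15%. SDF2L1, a partner of the ER chaperone BiP, stood at 12.8 CPM (37 counts) in Hep3B and 68.9 in Hep3B-C, against 44.7 in Huh7 and 40.6 in Huh7-C. CRELD2, an ER stress-inducible protein of the disulfide isomerase kind, stood at 25.2, 66.6, 47.8 and 33.9 CPM. In each, Hep3B was the lowest and Hep3B-C the highest library. The log2 fold-changes in Hep3B-C of 2.42 (SE 0.25) and 1.39 (SE 0.19) were 0.21 and -0.32, neither called, with the trends removed, at GC contents of 65.6% and 60.7%.

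None of the 5 abundant folding factors was called under the total gene count. CALR, the lectin chaperone calreticulin, was the highest of the 42 genes per length in Hep3B, at 1294 RPKM (CPM per kilobase of gene length). In CPM it stood at 2472, 2222, 2785 and 2011. CANX, the membrane lectin calnexin, stood at 1156, 799.7, 1627 and 1863 CPM. The disulfide isomerase PDIA3 had 709.9 to 969.5 CPM over the 4 libraries, PDIA4 342 to 479 and PDIA6 236 to 468. Over these 5 genes the log2 fold-changes lay between -0.53 and -0.15 in Hep3B-C and between -0.47 and 0.20 in Huh7-C, and in the Hep3B pair all 5 were above 0 with TMM. With the trends removed CALR was down-regulated in Hep3B-C, at -1.02, and CANX stood at 0.72, and with TMM added CANX was up-regulated, at 1.32. MANF, a secreted ER stress-inducible factor, stood at 58.7, 71.5, 122 and 78.0 CPM, with log2 fold-changes of 0.28 (SE 0.14) and -0.65 (SE 0.10).

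The change differed between the pairs in 24 of the 42 genes by the exact conditional test of the ratio of the ratios (FDR of at most 0.01 and a difference of at least 1 on the log2 scale), against 39.5% of 13917 genes. With the trends removed the count was 13, against 23.1%. The 13 held the 8 genes up-regulated in Hep3B-C under all 4 scalings, namely TRIB3, ASNS, PHGDH, PSAT1, SHMT2, PYCR1, SLC7A5 and SLC3A2, and in addition CTH, EDEM1, ERN1, HERPUD1 and PPP1R15A. The largest difference was that of TRIB3, at 4.12 on the log2 scale, or 2.72 with the trends removed.

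Shared calls were rare among the 42 genes, as they were among all 13917 genes listed in both pairs. SLC7A5 was the only gene of the 42 up-regulated in both lines, against 0.568% of genes. None was down-regulated in both, against 1.49%. None was called in opposite directions, against 2.45%, although ERN1 was with the trends removed. With only 3 of the 42 genes called in Huh7-C, few shared calls were possible. When HCSC and HCC were compared over all 4 libraries with edgeR's quasi-likelihood test, with the parental line as a block and 1 residual degree of freedom, 0 of the 42 genes were called. Only 3 of all 11691 genes tested were called, so the 0 says little about the 42 genes. Without adjustment, SLC7A5 and PHGDH fell under the threshold of 0.05, against 3.18% of the 11691 genes in that fit, with log2 fold-changes of 2.19 and 2.03. DESeq2 called 0 of the 42 genes and had 6 under the unadjusted threshold. The share of all genes was not counted for DESeq2, so the 6 says nothing particular to the 42 genes.

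Other genes of the pathways were followed by a list of 72 genes drawn up by their known roles. In Hep3B-C, 23 of the 71 measured were up-regulated (32.4%) and 16 down-regulated (22.5%), against 13.2% and 30.4% of all genes. In Huh7-C, 0 of 72 were up-regulated and 2 down-regulated (2.78%), against 4.19% and 4.15%. The 20 cytosolic aminoacyl-tRNA synthetases, which charge tRNAs with amino acids, held 9 genes called up and 0 called down in Hep3B-C and none in Huh7-C. With TMM 10 were called up (50%, against 21.6% of all genes) and with the trends removed 4 (20%, against 4.51%). With both, 12 were called up (60%, against 12.5%), when all 20 lay above 0. VARS, the valine enzyme, had 704 counts in Hep3B and 6792 in Hep3B-C, against 1760 in Huh7 and 2351 in Huh7-C, with a log2 fold-change in Hep3B-C of 2.59 (SE 0.06), or 1.59 with the trends removed. YARS, the tyrosine enzyme, had 253, 2413, 1529 and 2113 counts, and a log2 fold-change of 2.57 (SE 0.10), or 1.86 with the trends removed.

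Among 19 other measured genes of the ATF4 branch, 5 were up-regulated (26.3%) and 6 down-regulated (31.6%) in Hep3B-C, a share of down-regulated genes near the 30.4% of all genes. With TMM the counts were 9 (47.4%) and 2 (10.5%), against 21.6% and 18.1% of all genes. With the trends removed they were 3 (15.8%) and 3 (15.8%), against 4.51% and 23.2%. SESN2, an ATF4 target that restrains mTORC1, had 57 and 491 counts in the Hep3B pair and 285 and 252 in the Huh7 pair. Its log2 fold-change in Hep3B-C was 2.42 (SE 0.20), or 1.42 with the trends removed. STC2, a secreted ATF4 target, went the other way, with 188 and 91 counts and a log2 fold-change of -1.72 (SE 0.18), or -1.49 with the trends removed.

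Among 32 other genes of ER folding and degradation, 9 were up-regulated (28.1%) and 10 down-regulated (31.2%) in Hep3B-C, the second share near the 30.4% of all genes, while 2 were down-regulated in Huh7-C. With TMM the counts in Hep3B-C were 12 (37.5%) and 2 (6.25%), against 21.6% and 18.1% of all genes. With the trends removed they were 2 (6.25%) and 4 (12.5%), against 4.51% and 23.2%. ERO1L, the oxidase that drives disulfide formation, had 1570 and 290 counts in the Hep3B pair and 528 and 641 in the Huh7 pair. Its log2 fold-change in Hep3B-C of -3.12 (SE 0.09) was -2.57 with the trends removed. WFS1, an ER membrane protein, had 108 and 723 counts and a log2 fold-change of 2.06 (SE 0.15) that was 0.96, not called, with the trends removed. In Huh7-C the 2 down-regulated genes were DNAJB9, a BiP cochaperone induced by spliced XBP1, with 160 and 55 counts and a log2 fold-change of -1.47 (SE 0.23), and SEC61G, a translocon subunit, with 296 and 124 counts and -1.19 (SE 0.15).

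**Figure D5:**
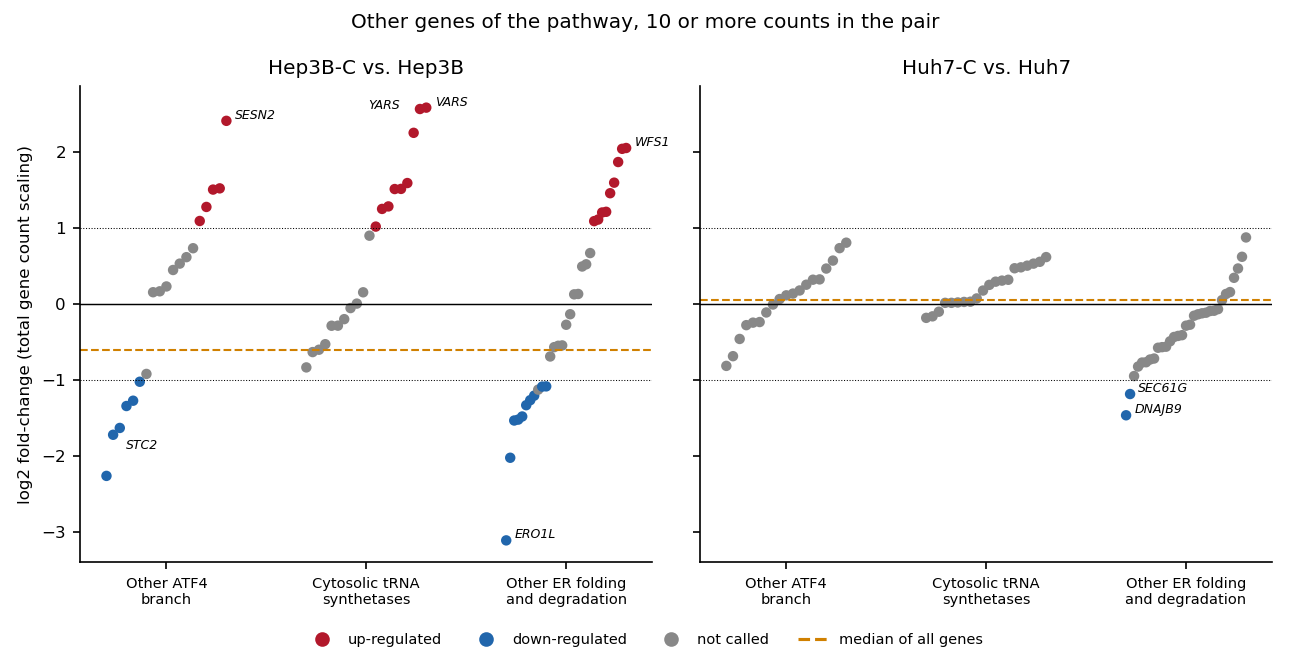
Log2 fold-change (y axis, scaled by total gene count) of other genes of the pathway with at least 10 counts in the pair, sorted within 3 roles (x axis), in Hep3B-C vs. Hep3B (left) and Huh7-C vs. Huh7 (right). Up-regulated genes are red, down-regulated genes blue and others grey, dotted lines mark -1 and 1, and the dashed line is the median of all genes; 9 synthetases are up-regulated on the left, and on the right DNAJB9 and SEC61G are the only called genes.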

How the data were processed

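RNA of 4 hepatoma cultures was sequenced, with 1 library each. Per the study's methods, the authors filtered the reads, aligned them to NCBI Build 36.1 with NextGENe on Illumina Genome Analyzer II data, and counted reads per transcript. What the authors deposited were raw read counts for each gene, without normalization. Strand and the handling of reads with several matches are not given in the sources used here. The 42 genes, their roles, the other gene lists and the tests were chosen with earlier results of these data known. Genes were found by symbol and joined between pairs by Entrez ID.

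HCSC and parental line were compared by the Audic-Claverie test, 2-sided, with Benjamini-Hochberg adjustment over all genes of the pair. Fold-changes divided counts (0.5 added) by the total gene count before the ratio was taken, and SEs were those of Poisson counts. Intervals and SEs cover counting error only. The difference between pairs was tested with Fisher's noncentral hypergeometric distribution. The joint comparison used edgeR 4.0.16 (TMM, filterByExpr, FDR of at most 0.01), with genes missing from 1 pair taken as 0. The block rests on the labels, which tie each HCSC line to its parental line, and the deviations of the Hep3B and Hep3B-C libraries from their group means had a Pearson correlation of 0.47 across genes. GC content was that of the GENCODE release 29 transcript nearest in length to the deposited gene length, and trends were fitted on genes with at least 20 counts. Alternatives were TMM and DESeq2 1.42.0 size factors, 5 added to each count, count minimums of 10 and 50, an assumed variation of 0.4, and removal of length or of GC and length trends. TMM with the trends removed was added after seeing the data. The tests were tried on simulated data. For the joint fit, these data varied less between libraries than the coefficient of variation of 0.514 estimated here, and held no difference between parental lines. That trial therefore does not show how the joint fit behaves on the real libraries. R 4.3.3, Python 3.11.15, scipy 1.17.1 and pandas 2.3.3 were used.

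All 42 genes were named. Members called in a pair with at least 50 counts in a library of that pair were given in CPM in all 4 libraries. Of the other pathway genes, the 2 largest absolute fold-changes per role and pair among called genes with at least 50 counts in a library were named. Promoter stretches carry GRCh38.p14 coordinates and were not compared with read positions. Of the 42 genes, 8 have pseudogenes named after them in RefSeq. Protein sequences were not used here.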

Additional observations from a re-analysis of the deposited data

Results flagged for a closer look

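The change between HCSC and HCC differed between the Hep3B and the Huh7 pair in 24 of the 42 genes by the exact conditional test of the difference. The share was 39.5% among the 13917 genes listed in both pairs. The values below are the log2 fold-change in Hep3B-C minus that in Huh7-C, scaled by total gene count. With GC and length trends removed the count was 13 genes, against 23.1% of all genes. With TMM library sizes it was 27. The share of all genes was not counted there, so the rise from 24 says nothing particular to the 42 genes.

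Amino acid synthesis held 7 of the 24 genes, all with a positive difference, namely PYCR1 (3.12), PHGDH (2.60), SHMT2 (2.25), CTH (1.69), GPT2 (1.30), ASNS (1.23) and PSAT1 (1.06). With GC and length trends removed, GPT2 was at 0.80 and the other 6 were still called. Of the transporters, SLC6A9 (2.69), SLC3A2 (2.40), SLC7A5 (1.86) and SLC1A5 (1.23) had a positive difference and SLC38A2 (-2.10) and SLC7A11 (-1.67) a negative one. With the trends removed SLC1A5 stood at -0.02 and SLC7A11 at 0.76.

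Of the feedback genes and transcription factors, TRIB3 (4.12), CEBPB (1.98) and CHAC1 (1.61) had a positive difference, and CEBPG (-2.00) and PPP1R15A (-1.56) a negative one. With the trends removed CEBPB stood at 0.17 and CHAC1 at -0.32, while PPP1R15A stood at -2.87. The sensors EIF2AK3 (-1.84), EIF2AK4 (-1.81) and ERN1 (-1.69) all had a negative difference, and of the 3, ERN1 alone was still called with the trends removed (-2.55). In the ER, SDF2L1 (2.55) and CRELD2 (1.89) had a positive and SEL1L (-1.67) a negative difference, and with the trends removed all 3 lay between -0.003 and 0.22.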

How the results depend on the processing

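The calls of the Hep3B pair depended on the scaling and on the trends with GC content and length, and the cause of the trends was not tested. DESeq2 size factors came out equal in both libraries of a pair. With TMM and with DESeq2 size factors, 3 members were down-regulated in Hep3B-C, against 18.1% and 16.5% of all genes. With TMM and both trends removed it was 1, against 10.9%. With an assumed variation of 0.4 between cultures 1 member was up-regulated and 0 down-regulated in Hep3B-C. The median log2 fold-change of the members in Hep3B-C was 0.71 with TMM, 0.80 with DESeq2 size factors, 0.685 with TMM and both trends removed, and -0.047 over members with at least 50 counts. In Huh7-C, 0 members were up-regulated at the assumed variation of 0.4. With the length trend removed, with both trends removed, and with TMM added to that, 1 (ERN1) was up-regulated and 1 (EDEM1) down-regulated. Of all genes, 2.92% were up-regulated and 4.09% down-regulated with both trends removed, and 2.66% and 4.3% with TMM added. Shares of all genes were not counted for the assumed variation of 0.4, the length trend alone, or calls shared by the pairs under these alternatives. The median in Huh7-C was -0.038 with TMM, -0.062 with DESeq2 size factors, -0.014 with both trends removed, -0.056 with TMM added to that, and -0.015 over members with at least 50 counts. The number up-regulated in both pairs was 0 with the assumed variation of 0.4, with the length trend removed, with both trends removed and with TMM added to that, and 1 member (ERN1) was called in opposite directions with both trends removed. The change differed between pairs in 13 members with both trends removed, against 23.1% of all genes.

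In the joint edgeR fit, the parental line as replicate block was the pairing given by the labels, since each HCSC line came from its own HCC line. Without the replicate block 1 member fell under an unadjusted p of 0.05, with the DESeq2 Wald test 6, and without 1 library at a time (no block, since none can be kept) between 0 and 9, where a lone library was assumed to vary like the others. The 9 came without Huh7, the HCC library numbered 2. No member was called in any of these fits.

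Single members changed direction as follows, most of them without a call. In Hep3B-C, with TMM library sizes they were ERN1 0.46, ATF3 0.023, DDIT3 0.43, MTHFD2 0.42, SLC7A11 0.12, HERPUD1 0.51, SYVN1 0.55, CALR 0.44, CANX 0.064, PDIA3 0.22, PDIA4 0.20 and PDIA6 0.43. With DESeq2 size factors they were ERN1 0.55, ATF3 0.11, DDIT3 0.51, PSPH 0.004, MTHFD2 0.51, SLC7A11 0.20, HERPUD1 0.59, SYVN1 0.63, CALR 0.53, CANX 0.15, PDIA3 0.31, PDIA4 0.29 and PDIA6 0.51. With the length trend removed they were ERN1 0.30, XBP1 -0.14, ATF4 -0.002, SLC7A11 0.79, CANX 0.18 and MANF -0.78. With GC and length trends removed they were ATF4 -0.71, CEBPB -0.072, CHAC1 -0.32, MTHFD2 0.43, CBS -0.27, SLC7A11 1.45, HERPUD1 0.46, SEL1L 0.10, EDEM1 0.12, CANX 0.72, PDIA3 0.28, PDIA6 0.021, CRELD2 -0.32 and MANF -0.23. With TMM and both trends removed they were EIF2AK4 0.21, ATF6 0.30, ATF4 -0.12, ATF3 0.19, MTHFD2 1.03, SLC7A11 2.05, HERPUD1 1.05, SEL1L 0.70, EDEM1 0.72, CANX 1.32, PDIA3 0.88 and PDIA6 0.62. In Huh7-C, with TMM library sizes they were PYCR1 -0.007 and GPT2 -0.019. With DESeq2 size factors they were PYCR1 -0.032 and GPT2 -0.044. With the length trend removed they were CHAC1 0.025, CBS 0.018, GPT2 -0.083, SEL1L -0.014, CANX -0.012 and SDF2L1 0.11. With GC and length trends removed they were CBS 0.040, GPT2 -0.037, SEL1L -0.026 and CANX -0.028. With TMM and both trends removed they were GPT2 -0.078, SEL1L -0.067 and CANX -0.069. Depth limits SLC6A9, CTH, CEBPB, PYCR1, CHAC1 and SDF2L1, which had 3 to 37 counts in Hep3B, and ATF3 and ERN1 in the Huh7 pair. Adding 5 to each count or asking for at least 10 counts in the pair left the direction and call of all 42 members as they were in both pairs.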
